A study of Rattus norvegicus with 6 samples.

Results

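Regulators of G-protein signalling (RGS proteins) switch off heterotrimeric G proteins. Here 10 genes with an RGS symbol were examined, of which Rgs7bp encodes a membrane anchor of RGS proteins. The cells were primary rat cells taken from the surface zone of joint cartilage, which makes the lubricant of the joint. The genes are Rgs2, Rgs3, Rgs4, Rgs7, Rgs7bp, Rgs10, Rgs12, Rgs16, Rgs17 and Rgs19, taken by symbol from the 32161 genes of the count table. Cells were kept without flow, at 0 dyne/cm² (static, 3 libraries), or exposed to flow at 20 dyne/cm² (shear, 3 libraries), and polyadenylated RNA was sequenced by a stranded protocol. Shear stress is the drag of a moving fluid on the cell surface. The labels name no genetic change or drug in either group, and the duration of flow and the age of the animals were not available from them. Nothing in the labels ties the 3 libraries of each group to different cultures or animals, so p-values reflect only how far these libraries differ among themselves, which may be technical variation.

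When a receptor at the cell surface is activated, the alpha subunit of its G protein binds GTP and signals until that GTP is hydrolysed. RGS proteins carry a domain that speeds up this hydrolysis, so they shorten signals from receptors that couple to Gi and Gq. In cartilage cells such receptors read prostaglandins, lysophospholipids, bradykinin and thrombin, among other ligands. Some RGS genes are themselves induced by the signals their products limit, which makes them part of a negative feedback.

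The 10 genes were chosen by name with their log2 fold changes between shear and static libraries already known, so the levels and fold changes of these genes are given as a description, without a test. The same table holds 24 rows with an RGS symbol. The 14 rows outside the list had at most 28 counts in any library, and 2 of them, Rgs22 and Rgsl1, passed the low-count filter. All 10 listed genes passed it, Rgs4 and Rgs17 with few counts. Against all 13945 genes tested, of which 18.5% differed between the groups (edgeR quasi-likelihood test, adjusted p under 0.05), 5 of the 10 were past that threshold. Of these, 4 were higher under shear, where the background is 10.8%, and 1 was lower, where it is 7.71%. Without static replicate 2, or without shear replicate 2, 3 of the 10 were past it. Nothing is read from these counts, since the genes were chosen with this comparison in view.

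Library totals lay between 33342775 and 33979479 counts. The markers of the named cell type were only partly present. Prg4, the lubricin gene of superficial cells, was at 18.8 CPM in static and 22.4 CPM in shear libraries (CPM, counts scaled to the library total with TMM factors), and the 6 superficial markers, mostly Thbs4, summed to 123 to 136 CPM in static and 147 to 150 CPM in shear libraries. Of the 5 tested, Prg4, Abi3bp and Thbs4 rose and Creb5 fell, and Erg was below 1 CPM. Of 7 cartilage markers, Col2a1, Comp, Matn1 and Col9a1 were below 1 CPM in every library, Col11a1 was at 586 CPM in static and 582 CPM in shear libraries, Sox9 rose from 6.53 to 15.6 CPM and Acan fell from 14.2 to 11.3 CPM. The sum of these 7 was 601 to 614 CPM in static and 590 to 620 CPM in shear libraries, nearly all of it Col11a1. Of 6 tested markers of smooth muscle and pericytes 0 changed in edgeR (0 at an unadjusted p under 0.05, and 0 in DESeq2 and limma-voom). The summed level of the 8 listed was 687 to 716 CPM in static and 664 to 718 CPM in shear libraries. Most of it was Acta2, at 509 CPM in static and 510 CPM in shear libraries, followed by Myh11 at 103 and 99.2 CPM. Notch3 and Kcnj8 were below 1 CPM in every library, and Abcc9 was at 0.59 and 1.00 CPM. Of 5 skeletal muscle markers 4 fell. The 5 summed to 45.1 to 46.9 CPM in static against 21.0 to 22.1 CPM in shear libraries. Most of the fall in this sum was Myh3, at 21.9 CPM in static and 1.68 CPM in shear libraries. Tnnt3, Acta1 and Mylpf fell by fewer CPM, and Myh4, at 12.99 and 13.9 CPM, did not fall. Of 7 endothelial markers, Kdr fell and 5 were below 1 CPM throughout (Emcn and Cldn5 at 0), with a sum of 9.85 to 11.8 CPM in static and 5.24 to 9.22 CPM in shear libraries. Kdr was at 7.28 CPM in static and 3.68 CPM in shear libraries, and Tek at 3.28 and 3.13 CPM with overlapping groups. The 7 leukocyte markers in the table summed to 3.45 to 4.37 CPM in static and 2.16 to 2.59 CPM in shear libraries. Ptprc, Adgre1, Cd3e and Cd79a stayed below 1 CPM (Cd79a at 0), Ptprc with 11, 2 and 4 counts in static and 0 in shear libraries. Csf1r was at 2.19 CPM in static and 1.55 CPM in shear libraries, and Cd68 at 0.69 and 0.79 CPM. Lyz2 was at 0.67 and 0.10 CPM, with 1.49 CPM in static replicate 1. Among 8 markers of neurons and Schwann cells, Rbfox3 was at 0 and Sox10 and Snap25 below 1 CPM, and the sum of the list was 12.2 to 15.0 CPM in static and 15.1 to 15.5 CPM in shear libraries. The part that these shifts play in the values of the RGS genes was not tested, and in bulk RNA fewer cells of a type and less RNA per cell cannot be told apart.

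The sequences in front of 4 of the genes are shown first. They are those of the 3 genes that stood highest above static levels and that of Rgs12, which was lower and past the threshold. Each sequence is the 250 bases before the annotated start of the gene in the RefSeq annotation of the rat assembly GRCr8. This need not be the build of the count table. All motifs were searched on both strands. Capitals mark the core of the cAMP response element, TGACG. They also mark the AP-1 site, TGANTCA, which reads the same on both strands. The third motif in capitals is the TATA box, TATAAA. No match overlapped another.
Rgs16 (chr13:68437870-68438119, plus strand): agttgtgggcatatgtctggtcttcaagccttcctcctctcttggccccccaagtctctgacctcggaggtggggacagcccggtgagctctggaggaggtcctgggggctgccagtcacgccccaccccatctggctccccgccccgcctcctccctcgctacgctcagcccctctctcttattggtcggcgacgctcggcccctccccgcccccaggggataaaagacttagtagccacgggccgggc
Rgs2 (chr13:58352667-58352916, minus strand): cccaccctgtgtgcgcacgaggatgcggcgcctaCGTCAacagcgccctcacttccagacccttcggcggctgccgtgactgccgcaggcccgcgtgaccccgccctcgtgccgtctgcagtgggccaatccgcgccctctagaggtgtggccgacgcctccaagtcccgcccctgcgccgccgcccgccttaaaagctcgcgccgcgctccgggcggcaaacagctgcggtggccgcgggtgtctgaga
Rgs3 (chr5:81093801-81094050, plus strand): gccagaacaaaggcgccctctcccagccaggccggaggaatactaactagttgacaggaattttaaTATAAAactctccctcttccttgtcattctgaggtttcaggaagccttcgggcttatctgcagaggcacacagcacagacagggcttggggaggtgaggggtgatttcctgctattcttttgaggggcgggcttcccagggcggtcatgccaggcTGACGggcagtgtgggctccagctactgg
Rgs12 (chr14:80034860-80035109, minus strand): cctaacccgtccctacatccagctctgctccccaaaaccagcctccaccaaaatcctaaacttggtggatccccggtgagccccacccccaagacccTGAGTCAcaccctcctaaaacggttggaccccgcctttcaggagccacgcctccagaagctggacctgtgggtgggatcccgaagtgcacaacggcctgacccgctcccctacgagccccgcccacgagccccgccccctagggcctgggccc
The cAMP response element is bound by CREB, the transcription factor that protein kinase A switches on, and the AP-1 site by FOS and JUN proteins. The Rgs16 window held no match to any of the 5 motifs searched, which also include the TEAD site, GGAATG. The remaining motif is the E-box, CACGTG. The Rgs2 window held the cAMP response element core 216 bases before the start. The Rgs3 window held the same core 29 bases before the start and a TATA box 184 bases before it. The Rgs12 window held an AP-1 match 153 bases before the start. Among the windows of all 10 genes the cAMP response element core was found in 3 (Rgs2, Rgs3 and Rgs4), against 18.2% of the 33469 windows of the annotation. AP-1 matches were found in 2 (Rgs12 and Rgs17, background 6.34%), E-boxes in 2 (Rgs7 and Rgs19, background 5.59%), TATA boxes in 2 (Rgs3 and Rgs4, background 12.9%) and TEAD matches in 0 (background 12.1%). The genes that were higher under shear thus had no motif of this set in common, and these short windows say nothing of which factors act on the genes. The windows were rich in G and C, from 54.4% in Rgs4 to 77.6% in Rgs10, where the median of all windows was 51.2%.

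Rgs16, of the R4 subfamily of small RGS proteins that act on Gi and Gq alpha subunits, differed most. It lies on chromosome 13 from 71179910 to 71185216 in the coordinates of the table. Its level was 34.0, 30.9 and 30.3 CPM in the 3 static libraries and 94.4, 92.2 and 92.8 CPM in the 3 shear libraries. The groups lay far apart, and the shear libraries were nearly level with each other. The means were 31.7 ± 2.0 and 93.1 ± 1.2 CPM (SD, n = 3 each), which gives a log2 fold change of 1.55 ± 0.06 (SE), or 2.94-fold. By fold change Rgs16 ranked 21 from the top among the 13945 genes tested. Over the 13 alternative analyses its log2 fold change stayed between 1.504 and 1.605.

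**Figure D1:**
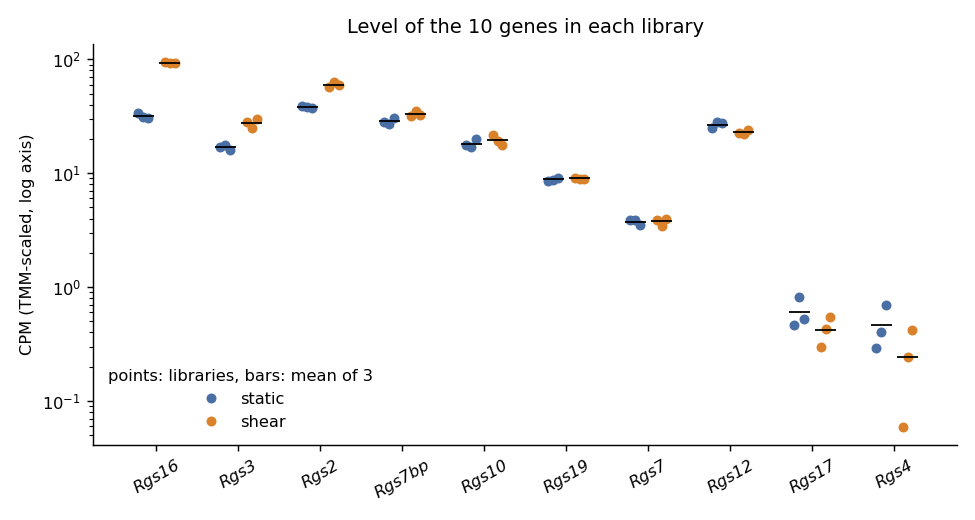
Level of each of the 10 genes (CPM, log axis) in the 3 static and 3 shear libraries, with points for libraries and bars for group means, ordered by fold change. Rgs16, Rgs3 and Rgs2 stand apart between the groups at the left, the groups of Rgs10, Rgs19 and Rgs7 overlap, and Rgs17 and Rgs4 lie below 1 CPM in every library.

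Rgs2, an R4 protein known for its preference for Gq, was also higher (chromosome 13, 60846308 to 60849094). It was at 38.7, 38.2 and 37.4 CPM in static and 57.8, 62.9 and 59.3 CPM in shear libraries. Every shear library was above every static library, and the static libraries were close together. The means were 38.1 ± 0.6 and 59.99 ± 2.65 CPM (SD, n = 3 each), and the log2 fold change was 0.65 ± 0.06 (SE). Rgs3, the large R4 member that acts on both Gi and Gq (chromosome 5, 78428669 to 78567288), was at 16.9, 17.7 and 16.1 CPM in static libraries. In shear libraries it was at 28.4, 24.8 and 29.9 CPM, so that the groups did not overlap and the shear libraries varied more than the static ones. The log2 fold change of Rgs3 was 0.71 ± 0.08 (SE), close to that of Rgs2 and below that of Rgs16. The intervals of 1 SE around Rgs2 and Rgs3 overlap, and the difference between the genes was not tested.

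Rgs4, the remaining R4 gene, did not share this pattern. It was close to the detection limit, with 10, 14 and 24 counts in static and 2, 8 and 14 counts in shear libraries. The groups overlapped, and the log2 fold change of -0.93 ± 0.53 (SE) had the widest SE of the 10. It ran from -1.60 to -0.47 when single libraries were left out. All 12 counts of Rgs4 and Rgs17 were even numbers, and the sources used here do not state whether a read pair was counted once or as separate reads, so the number of fragments behind these values may be smaller than the counts. The 4 R4 genes therefore covered a wide span, from a gene at 93.1 CPM under shear to one at 0.24 CPM.

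**Figure D2:**
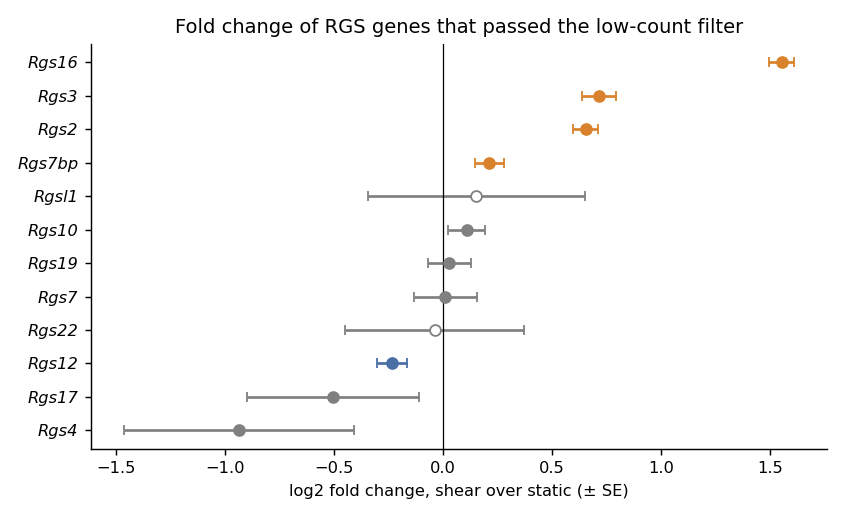
Log2 fold change, shear over static, with its SE for the 10 genes (filled) and for the other RGS genes that passed the low-count filter, Rgsl1 and Rgs22 (open). Orange marks genes past the threshold of adjusted p under 0.05 and higher under shear, blue the one past it and lower, and grey the others. Rgs16 lies at 1.55, Rgs3 and Rgs2 at 0.71 and 0.65, and the widest errors belong to Rgs4, Rgsl1, Rgs22 and Rgs17.

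Rgs7 belongs to the R7 branch, whose proteins need the beta subunit Gnb5 as a partner. To reach the plasma membrane they need an anchor, the product of Rgs7bp. Rgs7bp was at 28.3, 26.9 and 30.5 CPM in static and 31.6, 35.3 and 32.5 CPM in shear libraries. The groups were separated by a narrow gap, and the log2 fold change was 0.21 ± 0.07 (SE). Rgs7 was at 3.87, 3.88 and 3.49 CPM in static and 3.90, 3.46 and 3.96 CPM in shear libraries. These values overlap fully, with a log2 fold change of 0.01 ± 0.14 (SE), and its sign turned with the scaling. Gnb5, taken from the same gene list whatever its value, had 3.45 ± 0.09 CPM in static and 3.45 ± 0.26 CPM in shear libraries (SD, n = 3 each), with an edgeR adjusted p of 0.99. Gpr158, a receptor that can anchor R7 proteins in neurons, was listed at 0 in all libraries. Rgs7bp is one of the 5 genes counted as past the threshold, a description and not a test, and lay outside that count with upper-quartile factors, with library totals alone, or without static replicate 1, static replicate 2, shear replicate 2 or shear replicate 3, and its log2 fold change stayed between 0.16 and 0.27.

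While Rgs4 and Rgs17 had larger negative log2 fold changes with overlapping groups, Rgs12 alone was lower under shear and past the threshold. It encodes a large protein of the R12 subfamily with a PDZ domain, Ras-binding domains and a GoLoco motif that holds Gi alpha in its inactive form (chromosome 14, 80975322 to 81053906). It was at 24.8, 28.1 and 27.4 CPM in static and 22.5, 22.1 and 23.8 CPM in shear libraries. The lowest static and the highest shear library nearly met, and the log2 fold change was -0.23 ± 0.07 (SE). Rgs12, also among the 5, lay outside that count without static replicate 2, static replicate 3, shear replicate 1 or shear replicate 2, though it was lower in each of the 13 alternatives (-0.29 to -0.19). Rgs10, the small relative of Rgs12 that acts on Gi, was at 17.6, 17.1 and 19.8 CPM in static and 21.7, 19.2 and 17.8 CPM in shear libraries. Its groups overlapped, with a log2 fold change of 0.11 ± 0.08 (SE) that ran from 0.03 to 0.18 without single libraries.

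Rgs19 and Rgs17 are RZ proteins, which act on Gi and Gz. Rgs19 was at 8.56, 8.71 and 9.15 CPM in static and 9.02, 8.98 and 8.98 CPM in shear libraries. All shear libraries lay inside the static range, and the log2 fold change was 0.03 ± 0.10 (SE), which turned negative with library totals alone. Rgs17 had 16, 28 and 18 counts in static and 10, 14 and 18 counts in shear libraries. Its groups overlapped too, with a log2 fold change of -0.50 ± 0.40 (SE) that ran from -0.72 to -0.22 without single libraries. In all, the groups did not overlap in 5 of the 10 genes, where 32.7% of all genes tested showed no overlap. In 4 of them the shear libraries were the higher (background 16.7%) and in 1 the lower (background 15.9%). The median log2 fold change of the 10 was 0.07 against -0.01 for all genes tested, and their median absolute log2 fold change was 0.37 against 0.14. This 0.37 lies between the sizes of Rgs12 (-0.23) and Rgs17 (-0.50 ± 0.40), so it rests in part on a gene with few counts. Nothing is read from either median, since the genes were chosen with their fold changes known.

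**Figure D3:**
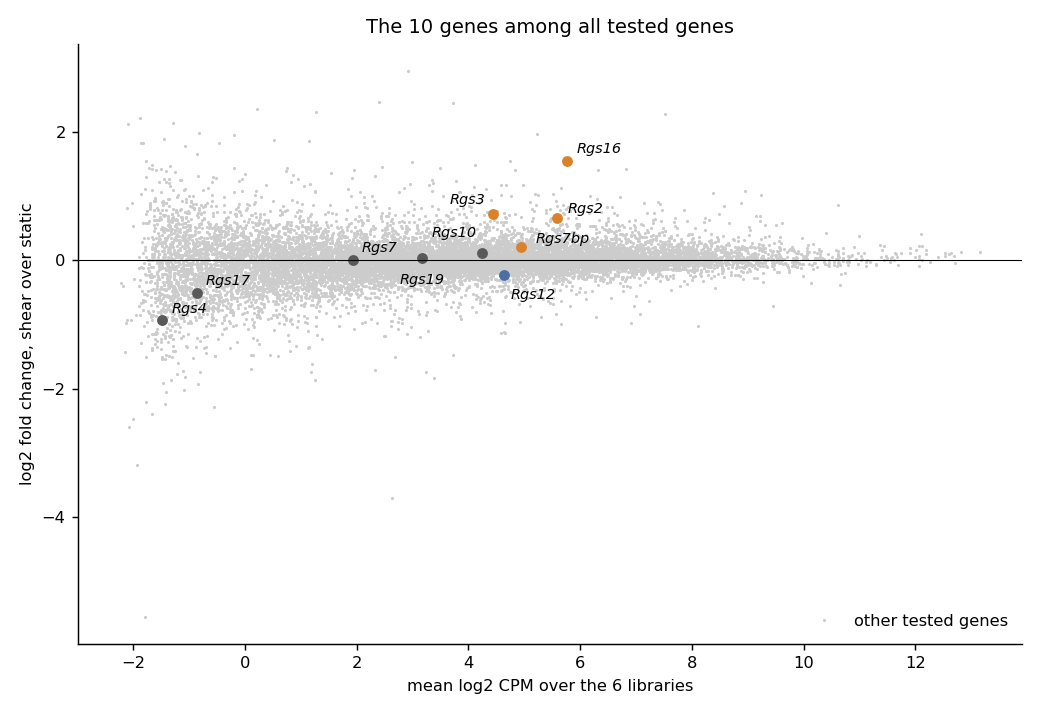
Log2 fold change, shear over static, against mean log2 CPM over the 6 libraries for all 13945 genes tested (small points), with the 10 genes as large points, orange or blue where past the threshold. Rgs16 stands at the upper edge of the genes of similar level, Rgs2 and Rgs3 lie above most genes of theirs, and Rgs4 and Rgs17 sit among low genes whose fold changes scatter widely.

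To compare levels between genes, CPM values were divided by the summed exon length of the table in kilobases (RPKM). In static libraries the order from the highest was Rgs7bp (55.4 ± 3.5), Rgs2 (43.9 ± 0.7), Rgs10 (21.6 ± 1.7), Rgs16 (12.9 ± 0.8), Rgs19 (6.83 ± 0.24), Rgs12 (4.42 ± 0.29), Rgs3 (3.02 ± 0.14), Rgs7 (1.44 ± 0.08), Rgs17 (0.24 ± 0.07) and Rgs4 (0.16 ± 0.07), each as RPKM (SD, n = 3). The libraries of neighbours in this order did not overlap, except those of Rgs17 and Rgs4. In shear libraries Rgs2 (69.1 ± 3.1) and Rgs7bp (64.2 ± 3.7) led with overlapping values, followed by Rgs16 at 37.8 ± 0.5, which had moved ahead of Rgs10 at 23.3 ± 2.3 (RPKM, SD, n = 3). Rgs3 and Rgs12 also exchanged places, at 4.95 ± 0.47 and 3.76 ± 0.15 under shear. The first place of Rgs7bp in static cells rests on its counted length of 516 bases, the shortest of the 10. By this measure Rgs7bp and Rgs2 stood at the percentiles 89.6 and 89.1 of all genes tested, Rgs16 at 79.0, and Rgs17 and Rgs4 at 5.20 and 2.30.

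The summed level of the 10 genes was 146 to 154 RPKM in static and 208 to 218 in shear libraries. Rgs16 made up 8.60 ± 0.62% of that sum in static and 17.9 ± 0.6% in shear libraries (SD, n = 3 each). Rgs2 contributed 29.3 ± 1.2% and 32.6 ± 0.8%, so Rgs2 and Rgs16 gained share together. The share of Rgs7bp was 36.9 ± 1.2% in static and 30.3 ± 1.1% in shear libraries, although its own level was no lower under shear. Rgs10 went from 14.4 ± 0.7% to 11.01 ± 1.16% in the same way.

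**Figure D4:**
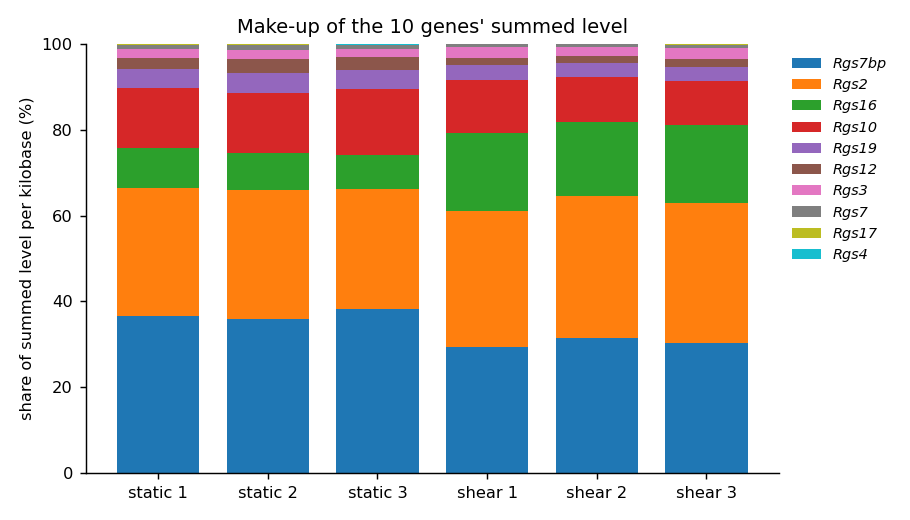
Share of each of the 10 genes in their summed level (RPKM, bars add to 100%) in each library. The share of Rgs16 is 7.98% to 9.22% in the static and 17.2% to 18.3% in the shear libraries, and Rgs7bp and Rgs2 together hold most of the sum in every library.

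Several RGS genes lie next to each other on chromosome 13, and these neighbours were nearly silent. Rgs16 has Rgs8 at a distance of 38.8 kb on one side and Rgsl1 at 24.3 kb on the other, in the coordinates of the table. Rgs8 had 6 to 14 counts per library and Rgsl1 5 to 13, while Rgs16 had 1051 to 3173. Rgs2 is followed by Rgs13, Rgs1, Rgs21 and Rgs18 within 716 kb. Rgs13 had 4 to 10 counts, Rgs1 and Rgs21 at most 2, and Rgs18 none, against 1297 to 2054 counts of Rgs2. Rgs4 lies 51.8 kb from Rgs5, a gene known from pericytes, which had at most 2 counts. Of the RGS genes in these groups, Rgs2 and Rgs16 alone had more than 30 counts in any library. None of the exons of the 10 genes overlapped an exon of another gene in the table on either strand.

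For Rgs16 the 3 genes with the most similar profile were named, out of 9825 genes whose mean log2 CPM was 1 or more and whose symbol is no placeholder. Similarity was the Euclidean distance between log2 CPM over the 6 libraries after centring each gene on its mean. The nearest was Dusp5, a phosphatase of the ERK kinases (distance 0.20), at 17.9, 17.3 and 17.1 CPM in static and 47.2, 46.3 and 45.0 CPM in shear libraries. Then came Slc5a7, the choline transporter (0.21), and Noct, the gene of nocturnin, a protein with a daily rhythm (0.23). Their log2 fold changes were 1.41, 1.53 and 1.43. For Rgs12 the nearest were Idh3g (0.064), Sspn (0.069) and Wdr6 (0.079). Such a measure mostly finds genes with a like fold change, and nothing about shared control follows from it.

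The partners of RGS proteins were taken from 11 lists of G-protein signalling genes, which hold 129 tested genes. Of these 14 rose and 13 fell, 20.9% in all, near the 18.5% of all genes, and their median log2 fold change was 0.004 against -0.012. The balance depended on the scaling: with upper-quartile factors 11 rose and 16 fell, and with library totals alone 8 rose and 20 fell. The number that rose was 9 without static replicate 1 or shear replicate 3 and 8 without shear replicate 2. For all genes the same choice moved the counts from 1508 higher and 1075 lower to 1275 and 1364 with upper-quartile factors, and to 1124 and 1730 with library totals alone.

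Among the G-protein alpha subunits, of which the Gi and Gq types are direct substrates of RGS proteins, most transcripts did not pass the test. Of 5 tested Gi, Go and Gt genes Gnai1 fell, from 82.6 ± 3.8 to 73.9 ± 1.0 CPM (SD, n = 3 each). Its log2 fold change was -0.16 ± 0.05 (SE) with an edgeR adjusted p of 0.029, a call that ended without static replicate 2 or 3 or shear replicate 1 or 3 (adjusted p 0.059 to 0.16). Gnai2, the most abundant of them per kilobase and named after its value was seen, was at 834 ± 29 CPM in static and 803 ± 31 CPM in shear libraries (SD, n = 3 each), with overlapping groups (edgeR adjusted p = 0.46). Of 4 Gq-type genes 1 rose, Gna15 (log2 fold change 0.75, edgeR adjusted p = 0.015), a low gene at 1.44 CPM in static libraries that was named after its value was seen. The call ended without static replicate 1 or shear replicate 1 or 2 (adjusted p 0.058 to 0.070). Gnaq and Gna11 had log2 fold changes of -0.14 and -0.16 and missed the threshold (edgeR adjusted p = 0.070 and 0.072). Of 3 tested Gs and G12-type genes 1 rose. This was Gna13, which couples receptors to the actin cytoskeleton. It was at 21.9, 22.3 and 24.4 CPM in static and 33.4, 32.1 and 32.8 CPM in shear libraries, which is higher by 0.52 ± 0.07 (SE) on the log2 scale with an edgeR adjusted p of 1.8e-06. The 3 shear libraries were close together and clearly above the static ones.

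Of 12 tested beta and gamma subunits the gamma gene Gng11 rose, by 0.39 on the log2 scale (edgeR adjusted p = 0.021), a call that ended without static replicate 1 or 2 or shear replicate 2 (adjusted p 0.057 to 0.076). Of 12 tested genes of other families with an RGS or RGS-like domain 1 rose and 2 fell. Axin2, a brake on Wnt signalling, fell (-0.28, edgeR adjusted p = 0.0029), as did the receptor kinase gene Grk5 (-0.32, edgeR adjusted p = 0.017). The call of Grk5 ended without static replicate 2 or 3 or shear replicate 2 (adjusted p 0.054 to 0.092). Its relative Grk4 rose by 0.34, a call with edgeR adjusted p = 0.045 that ended under 9 of 13 alternatives, among them leaving out each library except static replicate 3. The exchange factor genes Arhgef1, Arhgef11 and Arhgef12, whose RGS-like domains bind G12-type subunits, had log2 fold changes of -0.08, 0.01 and 0.16 and did not pass. Of 13 tested arrestins and other regulators 0 passed the test in edgeR, DESeq2 or limma-voom, and 2 had an unadjusted edgeR p under 0.05. The RGS genes outside the 10, Rgs22 and Rgsl1, had log2 fold changes of -0.04 ± 0.41 and 0.15 ± 0.50 (SE), at under 1 CPM.

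Both receptor lists held genes that rose and genes that fell. Of 24 tested receptors for lipids, proteases and peptides 4 rose and 5 fell (37.5%), where 18.5% of all genes changed, 10.8% up and 7.71% down. The vasopressin receptor gene Avpr1a, which couples to Gq, fell furthest. It was at 41.3, 44.2 and 41.4 CPM in static and 21.6, 21.1 and 22.2 CPM in shear libraries, with -0.96 ± 0.06 (SE) as log2 fold change and an edgeR adjusted p of 2.1e-11. The endothelin receptor gene Ednrb fell from 18.1 to 10.97 CPM (-0.72), the sphingosine-1-phosphate receptor gene S1pr1 from 2.88 to 1.77 CPM (-0.70) and the bradykinin receptor gene Bdkrb1 from 3.10 to 2.11 CPM (-0.55). The call of Bdkrb1 ended without static replicate 1 or 3 or shear replicate 2 or 3 (edgeR adjusted p 0.079 to 0.17). The last of the 5, named after its value was seen, was the prostaglandin F receptor gene Ptgfr (-0.46). Those that rose were named likewise: the prostacyclin receptor gene Ptgir (0.43), Bdkrb2 (0.42), the thrombin receptor gene F2r (0.30) and S1pr3 (0.23). The call of S1pr3 ended without static replicate 2 or shear replicate 2 (edgeR adjusted p 0.079 and 0.13). F2r, at 136 ± 3 CPM in static and 168 ± 5 CPM in shear libraries (SD, n = 3 each), was also the highest of the changed receptors per kilobase, at 39.7 RPKM in static libraries. The bradykinin receptors and the sphingosine-1-phosphate receptors thus each had a gene that rose and a gene that fell.

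Of 19 tested receptors for amines, nucleotides, chemokines and force 1 rose and 3 fell (21.1%, near the 18.5% of all genes). The adenosine receptor gene Adora2b fell from 6.15 to 3.16 CPM (-0.96, edgeR adjusted p = 2.9e-05), the latrophilin gene Adgrl2 by 0.28 and the chemokine scavenger gene Ackr3 by 0.26 on the log2 scale. The call of Ackr3 ended without each library in turn except static replicate 1 (edgeR adjusted p 0.055 to 0.17).

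Effectors downstream of the G proteins were in 2 lists. Of 24 tested genes of adenylyl cyclases and the cAMP pathway, 2 rose and 1 fell (12.5%, where 18.5% of all genes changed). The phosphodiesterase gene Pde4b, whose enzyme breaks down cAMP, fell. It had 33.5 ± 1.2 CPM in static and 23.7 ± 1.4 CPM in shear libraries (SD, n = 3 each), with -0.50 ± 0.07 (SE) as log2 fold change and an edgeR adjusted p of 3.4e-06. Pde8a rose by 0.29 and the cyclase gene Adcy7 by 0.20, a call that ended without static replicate 1 or 3 or shear replicate 2 or 3 (edgeR adjusted p 0.055 to 0.12). Of 11 tested genes of phospholipase C beta, the effector of Gq, and calcium release, 3 rose and 1 fell (36.4%, against the same 18.5%). Plcb3 (0.15), Plcb4 (0.16) and the kinase gene Prkcd (0.30) rose and Rasgrp1 fell (-0.50), with edgeR adjusted p between 0.024 and 0.039. The call of Plcb3 ended without static replicate 2 or 3 or shear replicate 3, that of Plcb4 without static replicate 1 or 3 or shear replicate 2 or 3, that of Prkcd without static replicate 1 or shear replicate 1 or 3, and that of Rasgrp1 without static replicate 2 or 3 or shear replicate 1 or 2.

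**Figure D5:**
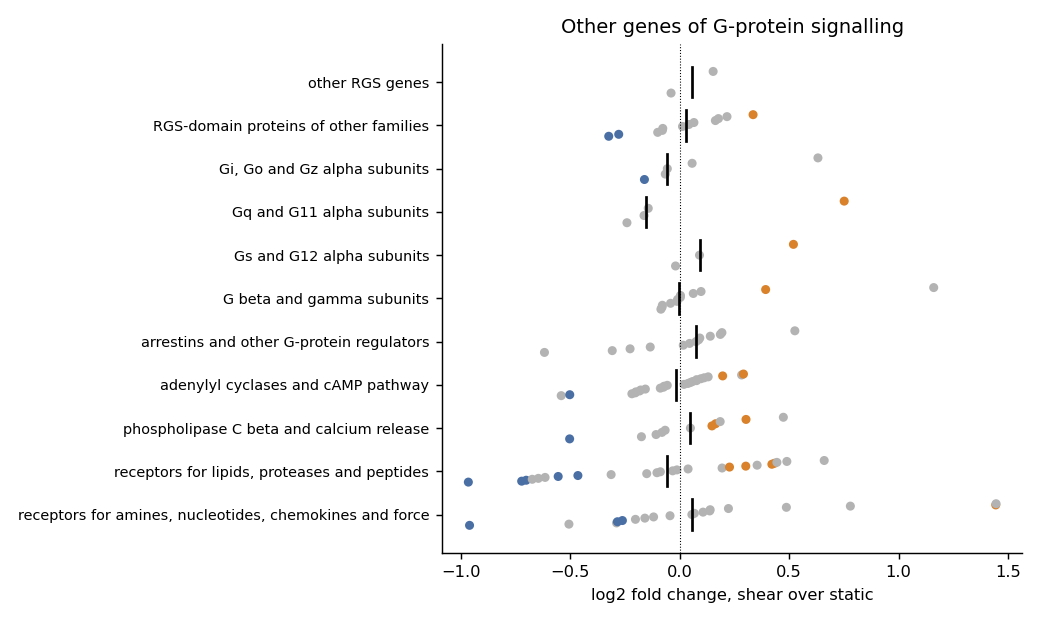
Log2 fold change, shear over static, of the tested genes of the 11 lists of G-protein signalling genes, with 1 point per gene and a black bar at each list's median. Orange and blue points passed the test (edgeR adjusted p under 0.05) as higher and lower, and grey points did not. The list medians lie near 0, and the receptor lists show called genes on both sides, with Avpr1a at -0.96 the furthest down.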

How the data were processed

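Per the file headers, the authors deposited 1 table of whole-number counts per gene and library, with exon positions and summed exon length. Tools named in the submitters' processing notes are edgeR 3.12.1, Subread 1.5.1, featureCounts and Trimmomatic 0.36. Positions are those of the table, as its aligner, genome build, annotation and strand setting are not given in the sources. Columns were matched to libraries by the names in the labels.

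The counts were filtered with filterByExpr (minimum count 10), scaled with TMM factors and compared by the two-sided quasi-likelihood test of edgeR 4.0.16 (R 4.3.3), with Benjamini-Hochberg adjustment over 13945 genes and a threshold of 0.05. The SE of a log2 fold change is its size divided by the root of the F statistic. At an unadjusted p under 0.05, 4102 genes passed. Of low counts (1 to 20), 71.4% to 72.2% were even. Replicates differed beyond sampling noise (chi-square over degrees of freedom 5.64 to 8.31). DESeq2 1.42.0 and limma 3.58.1 served as alternatives.

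The 10 genes and the lists were chosen with earlier results of these data known. Named besides the 10 are the other tested RGS genes, up to 4 changed genes per list, largest change first, and the 3 genes nearest in profile to the members with the largest rise and fall, each where the mean log2 CPM was 1 or more. Genes outside this rule are marked so, except Gnb5, Gpr158, Gnaq, Gna11 and the Arhgef genes, which stand for partners of RGS proteins whatever their values. Listed symbols without a row, such as Axin1 and Rgs11, were not used here, and some genes that count in the totals are not reported here.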

Additional observations from a re-analysis of the deposited data

How the results depend on the processing

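Over 13 alternatives, the log2 fold changes of Rgs16, Rgs2 and Rgs3, given as a description, were 1.504 to 1.605, 0.60 to 0.69 and 0.66 to 0.79. With library totals alone 1730 genes were lower, and of the list genes 8 were higher and 20 lower. When each library was left out in turn, 3 to 4 of the 10 genes were past the threshold, with 0 to 1 lower, and 8 to 14 list genes were higher. Rgs7 turned to -0.039 with library totals alone and -0.015 with upper-quartile factors, and spanned -0.033 to 0.069 without single libraries. Rgs19 turned to -0.021 with library totals alone. Rgs22 turned to 0.014 with the replicate block and 0.12 with limma-voom, and spanned -0.43 to 0.21 without single libraries, and Rgsl1 -0.13 to 0.52. The cause of these shifts was not tested. The titles number the replicates alike in both groups, but same-numbered libraries did not deviate together (correlation -0.019 to -0.00050), and 0 of the 6 libraries correlated best with their own number. With the replicate number as a block, 2336 genes changed, the 10 genes gave 5 calls as before, and the lists 23. Rgs4 and Rgsl1 have no adjusted p with DESeq2. Depth limits Rgs4, Rgs17, Rgs22 and Rgsl1, whose SE were 0.40 to 0.53.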
